A study of Mus musculus with 6 samples.

Results

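The genes described here are the mouse Vps genes (vacuolar protein sorting), the sorting nexins (Snx) and the Chmp genes, whose products bend, cut and sort endosomal membrane. They were taken from the FPKM table by symbol alone (Vps, Snx or Chmp followed by a number), which gave 70 of the 23235 genes listed: 30 Vps genes, 30 sorting nexins and 10 Chmp genes. FPKM is a read level scaled by transcript length and by the fragments mapped in the library. Values came from fully grown oocytes at the germinal vesicle stage, before meiotic maturation, of Rtcb knockout (KO) and wild-type (WT) mice. There were 3 libraries of each genotype, each made from 10 pooled oocytes. Rtcb encodes the RNA ligase that joins the exon ends of tRNAs and of Xbp1 mRNA after their introns are cut out. All mice were C57BL/6 and had received PMSG, a hormone that stimulates follicle growth, 44 to 48 h before collection. The labels used here do not give the deleted allele, how the deletion was driven, or a number of animals, and the sample titles carry the mark 6W without explaining it. Nothing in the labels says that libraries of a genotype came from separate mice, so a p-value here measures library-to-library spread only, and that spread may be technical.

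Endosomes receive membrane proteins from the cell surface and the Golgi and either return them or send them to lysosomes. Retromer (Vps26, Vps29, Vps35) and the sorting nexins that bind phosphoinositides through a PX domain carry cargo back. The ESCRT complexes bud cargo into the endosome lumen, with Chmp filaments remodelled by the Vps4 ATPases, and the same filaments act in abscission and nuclear envelope closure. HOPS, CORVET and GARP are tethers that hold vesicles at late endosomes, early endosomes and the trans-Golgi network before fusion. Growing oocytes take up material through the endocytic pathway and store maternal mRNA that is used after transcription stops at the end of growth.

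Rtcb itself, listed under the older symbol D10Wsu52e, had 3.82, 2.62 and 2.49 FPKM in the 3 KO libraries, against 136, 133 and 113 FPKM in the WT libraries. All 10 oocyte markers averaged at least 1 FPKM, with summed levels of 14672 to 16216 FPKM in KO and 21936 to 26890 FPKM in WT. Of 15 granulosa and cumulus markers 6 reached that level, led by Cyp19a1, Nr5a2 and Inha, with sums of 46.6 to 60.7 FPKM in KO and 57.2 to 65.8 FPKM in WT and Ptx3 at 0 in all 6 libraries. Their part in the results was not tested. Of 5 blood markers 1 reached it, with sums of 0.879 to 8.57 FPKM in KO and 2.88 to 4.84 FPKM in WT and with Hba-a1 and Hbb-b1 at 0. None of the 5 theca and stroma markers did. The deposited values carry 1 multiplying factor per genotype, 4/3 in KO and 2 in WT, a ratio of 0.667 that lowers every KO value by 0.58 on the log2 scale relative to WT. After division by these factors 100% of values of at least 1 FPKM returned to 6 significant digits, against at most 74.9% for any other of 91 candidate factors. The deposited values are labelled as normalized by the authors to ERCC spike-ins, RNA added at lysis, so values as deposited are on that scale. The labels used here do not state whether the factors come from that step. Results are therefore given as deposited, with the call once the genotype factors are removed where it changed. Equal library totals and median ratio were the other 2 of the 4 scalings.

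Of the 70 genes, 63 averaged at least 1 FPKM and were tested. As deposited, 5 were called higher in KO and 40 lower, and 18 were not called (limma on log2(FPKM + 1), Benjamini-Hochberg adjusted p under 0.05 over all genes tested). That is 7.94% higher and 63.5% lower, against 9.29% higher and 54.0% lower over all 12029 tested genes. With the genotype factors removed, 10 members were higher and 11 lower (15.9% and 17.5%), against 25.7% and 18.0% of all tested genes. With equal totals 8 were higher and 19 lower, against 19.0% and 25.8% of all tested genes (44.8% in either direction), and with median ratios 10 were higher and 16 lower, against 22.8% and 21.7%. A fall of at least 2-fold by the ratio of means was called in 12 members (19.0%), against 20.7% of all tested genes. Under all 4 scalings, 5 members were higher and 11 lower, against 9.23% and 18.0% of all tested genes, so the share of falling members was close to the background. The other scalings raise KO relative to WT. Of 1118 genes called higher as deposited 1110 stayed so under all 4, so keeping a higher call says little. The 2161 genes lower under all 4 equal in number those lower with the factors removed. The median log2 fold change of the members was -0.57, against -0.47 over all tested genes, and -0.01 against 0.04 with the factors removed. In 41 members every KO library lay below every WT library (65.1%), against 57.5% of all tested genes, and in 5 every one lay above (7.94%), against 10.2%. The 11 lower ones were Vps8, Vps11, Vps41, Vps39 and Vps16 of HOPS and CORVET, Vps52 and Vps53 of GARP, Vps37b, Chmp3, Vps13d and Snx9. The 5 higher ones were Vps54, Chmp6, Chmp4b, Snx5 and Chmp2b. KO library 2 was the lowest of the 3 KO libraries in all 5 of the higher genes. Among the 40 members called lower as deposited it was the highest KO library in 16. The share over all tested genes was not counted. Each library pools oocytes, so fewer cells carrying a transcript and less RNA per cell cannot be told apart.

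**Figure D1:**
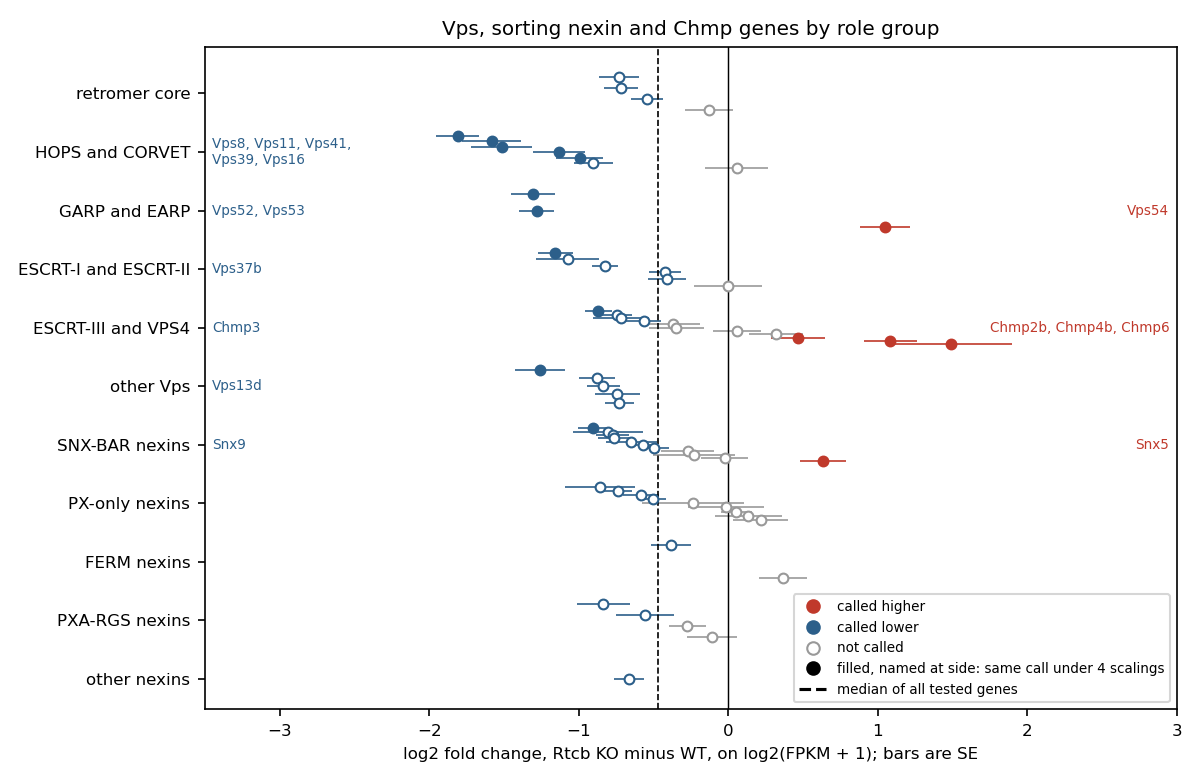
Log2 fold change (KO minus WT, on log2(FPKM + 1), as deposited, x axis) of each of the 63 tested genes, grouped by role (y axis), with SE bars and the median of all 12029 tested genes as a dashed line. Filled points, named at the sides, keep their call under all 4 scalings: 5 HOPS and CORVET genes and 2 GARP genes stand among the lower ones, and 3 ESCRT-III genes, Vps54 and Snx5 among the higher ones.

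HOPS and CORVET share a core of Vps11, Vps16, Vps18 and Vps33a. Vps39 and Vps41 are added to form HOPS, which acts at late endosomes and lysosomes, and Vps8 to form CORVET, which acts at early endosomes. The group counted here also holds Vps33b, of a related complex, and lacks the CORVET subunit Tgfbrap1, which the symbol rule does not take. Of its 7 tested genes 6 fell in KO and none rose, with a median log2 fold change of -1.13. These 6 are 85.7% of the group, against 54.0% lower of all tested genes, and 5 were lower under all 4 scalings (71.4%), against 18.0%. Vps8 had the largest fall of all tested members, with 2.24, 2.58 and 2.54 FPKM in KO, against 12.6, 10.3 and 10.4 FPKM in WT. All 3 KO libraries lay far below all 3 WT libraries. The WT mean was 4.54-fold higher (log2 fold change -1.81, SE 0.14, limma adjusted p = 0.000162, and -1.21 with the genotype factors removed, adjusted p = 0.00102). Vps11 had 8.06, 8.75 and 6.65 FPKM in KO, against 33.4, 24.1 and 20.03 FPKM in WT, 3.30-fold higher in WT (log2 fold change -1.58, SE 0.20, limma adjusted p = 0.000359).

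Vps41 had 9.49, 10.4 and 6.47 FPKM in KO, against 31.7, 27.5 and 21.3 FPKM in WT (log2 fold change -1.51, SE 0.20). Vps39 had 16.3, 12.7 and 15.95 FPKM in KO, against 43.1, 30.9 and 28.9 FPKM in WT (log2 fold change -1.13, SE 0.18). In both HOPS genes the groups were apart, with the WT libraries spread more widely and WT library 1 the highest. Vps16 had 6.15, 7.19 and 6.09 FPKM in KO, against 16.8, 13.2 and 11.98 FPKM in WT, and its fall was the smallest of the 5 that held (limma adjusted p = 0.00104 as deposited and 0.0462 with the factors removed). Vps33b pairs with Vipas39 in a related tethering complex. It had 17.9, 14.9 and 18.7 FPKM in KO, against 36.3, 32.4 and 30.1 FPKM in WT, and its call as lower was lost with the factors removed (limma adjusted p = 0.0661). Its partner, listed as Vipar, averaged 24.1 ± 4.85 FPKM in KO and 23.8 ± 4.34 FPKM in WT (SD, n = 3 each), not called as deposited and called higher with the factors removed (limma adjusted p = 0.0364).

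The core gene Vps33a, a Sec1/Munc18 protein that binds SNAREs, was not called, averaging 1.81 ± 0.681 FPKM in KO and 1.65 ± 0.0357 FPKM in WT (SD, n = 3 each). Vps18 was too low to test, with 0.492, 0.263 and 0.964 FPKM in KO and 0.314, 0.338 and 0.0694 FPKM in WT. These were the least abundant of the 8 genes. Tgfbrap1, the other CORVET-specific subunit, averaged 8.65 ± 0.617 FPKM in KO and 16.8 ± 1.59 FPKM in WT (SD, n = 3 each), and its call as lower was lost with the factors removed (limma adjusted p = 0.0639).

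GARP tethers endosome-derived vesicles at the trans-Golgi network and is made of Vps51, Vps52, Vps53 and Vps54. In the related EARP complex, which acts on recycling endosomes, Vps50 takes the place of Vps54. In KO oocytes Vps52, Vps53 and Vps50 fell, while Vps54 rose. Vps52 had 10.2, 9.80 and 10.5 FPKM in KO, against 31.6, 26.7 and 22.2 FPKM in WT (log2 fold change -1.31, SE 0.15, limma adjusted p = 0.000252). Vps53 had 11.8, 12.4 and 12.5 FPKM in KO, against 34.5, 30.6 and 28.9 FPKM in WT (log2 fold change -1.28, SE 0.11, limma adjusted p = 0.000164). The KO libraries of both genes were nearly equal and all below WT. Vps54 had 13.3, 8.63 and 11.3 FPKM in KO, against 4.64, 4.76 and 4.86 FPKM in WT, a mean 2.33-fold higher in KO (log2 fold change 1.05, SE 0.17, limma adjusted p = 0.00109). All 3 calls held under the 4 scalings.

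Vps50 and Vps51 are listed under older symbols, Ccdc132 and 1110014N23Rik, so the symbol rule does not take them and they are outside the counts above. Ccdc132 had 15.4, 19.3 and 14.2 FPKM in KO, against 50.1, 41.5 and 47.6 FPKM in WT (log2 fold change -1.46, SE 0.14, limma adjusted p = 0.000178, called lower under all 4 scalings). 1110014N23Rik had 5.10, 4.72 and 5.93 FPKM in KO, against 9.91, 8.09 and 5.23 FPKM in WT, with overlapping groups and no call (limma adjusted p = 0.102). The ratio of Vps54 to Ccdc132 within a library depends on how libraries are scaled only through the pseudocount of 1. It was computed after the values were seen and is given without a test. On the log2 scale it was -0.20, -1.08 and -0.31 in KO, against -3.18, -2.89 and -3.05 in WT. The GARP-specific transcript was thus nearer to the EARP-specific one in KO, least so in KO 2, and far below it in WT. The difference was 2.51, with 2.35 to 2.78 when any 1 library was left out and 2.32 with the factors removed. With a pseudocount of 0.1 it was 2.69 and with 5 it was 1.98.

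**Figure D2:**
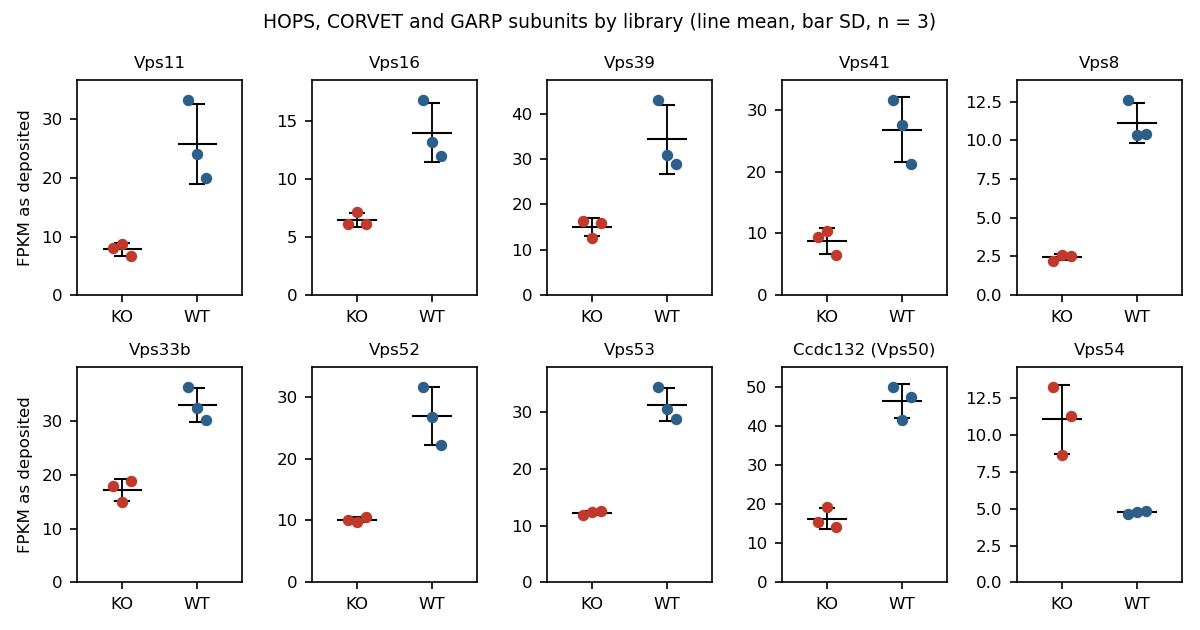
FPKM as deposited (y axis, each panel with its own scale from 0) in the KO and WT libraries for HOPS, CORVET and GARP genes and Ccdc132 (Vps50). Points are libraries, lines means and bars SD (n = 3). In 9 panels every KO library lies below every WT library, and in the Vps54 panel every KO library lies above.

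Promoter windows from the RefSeq table (build GRCm38.p6, 250 bases before to 50 after the transcript start) matched 47 of the 70 genes by symbol, with 58 windows. The authors' alignment used mm9, an earlier build, so windows were matched by symbol and not by coordinates. Windows of 4 genes that moved in opposite directions are printed: the CORVET gene with the largest fall, the GARP pair that moved apart, and the nexin that rose. Capitals mark the ETS-factor motif CCGGAAG in Vps53 and the E-box CACGTG in Snx5, and lower case the rest. Vps8 lies at chr16:21422868-21423167 (plus strand), Vps53 at chr11:76179589-76179888 (minus strand), Vps54 at chr11:21238782-21239081 (plus strand) and Snx5 at chr2:144270523-144270822 (minus strand).
Vps8: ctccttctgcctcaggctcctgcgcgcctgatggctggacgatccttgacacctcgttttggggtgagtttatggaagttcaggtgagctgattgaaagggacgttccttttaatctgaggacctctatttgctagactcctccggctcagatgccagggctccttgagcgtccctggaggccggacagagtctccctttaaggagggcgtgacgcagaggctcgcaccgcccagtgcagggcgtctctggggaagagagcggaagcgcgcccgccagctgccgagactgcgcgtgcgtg
Vps53: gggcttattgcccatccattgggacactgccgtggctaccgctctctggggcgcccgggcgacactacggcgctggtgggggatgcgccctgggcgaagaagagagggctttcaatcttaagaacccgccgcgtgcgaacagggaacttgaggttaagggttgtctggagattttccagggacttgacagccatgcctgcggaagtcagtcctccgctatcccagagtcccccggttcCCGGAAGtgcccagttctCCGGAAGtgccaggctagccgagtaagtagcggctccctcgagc
Vps54: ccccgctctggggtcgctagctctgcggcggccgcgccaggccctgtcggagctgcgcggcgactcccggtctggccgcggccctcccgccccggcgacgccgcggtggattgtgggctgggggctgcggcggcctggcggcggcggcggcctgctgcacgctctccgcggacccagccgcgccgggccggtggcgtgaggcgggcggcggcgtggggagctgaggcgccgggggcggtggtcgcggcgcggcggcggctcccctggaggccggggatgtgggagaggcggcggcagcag
Snx5: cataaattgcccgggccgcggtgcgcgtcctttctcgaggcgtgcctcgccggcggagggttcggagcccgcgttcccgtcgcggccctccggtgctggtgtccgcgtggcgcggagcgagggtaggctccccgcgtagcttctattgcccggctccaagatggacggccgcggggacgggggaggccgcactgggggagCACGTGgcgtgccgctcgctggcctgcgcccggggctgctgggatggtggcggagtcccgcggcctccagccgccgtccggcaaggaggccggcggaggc
The Vps53 window holds CCGGAAG at 2 places, the Vps54 window none of the 6 motifs searched, at a G and C content of 82.7%. Both strands of every window were searched. CCGGAAG was in 14 of the 58 member windows (24.1%), against 8.86% of all 32851 windows and 17.2% of windows of tested genes. CACGTG was in 7 (12.1%), against 7.15% of all windows and 9.83% of those of tested genes. The unfolded protein response element core TGACGTG was in 2 (3.45%), against 2.01% and 2.51%, and the ER stress response element in 0, against 0.119% and 0.185%. The NRF1 core motif was in 1 (1.72%), against 0.971% and 2.06%, and the YY1 motif AAGATGGCG in 2 (3.45%), against 1.40% and 2.94%. Each motif was searched separately, and letters shared between motifs were not checked. These letter matches are descriptions of the windows.

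The retromer core trimer selects cargo and coats the tubules that return it. Of its 4 genes 3 (75.0%, against 54.0% of all tested genes) were called lower as deposited and none under any of the other 3 scalings, where the log2 fold changes lay between -0.31 and 0.35. Vps35, the scaffold subunit, had 52.9, 43.2 and 48.1 FPKM in KO, against 94.1, 77.6 and 70.4 FPKM in WT (log2 fold change -0.73, SE 0.13, limma adjusted p = 0.00194, and 0.368 with the factors removed). Vps26a had 164, 144 and 141 FPKM in KO, against 279.8, 244 and 219 FPKM in WT. Vps29 had 178, 208 and 171 FPKM in KO, against 249, 274 and 289.5 FPKM in WT. The groups of these genes were apart as deposited, by 1.46-fold to 1.68-fold between means, about the size of the genotype factor. Vps26b, the other form of the cargo-side arm, had 6.09, 5.86 and 7.05 FPKM in KO and 5.84, 7.04 and 8.26 FPKM in WT, with overlapping groups.

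ESCRT-I recognises ubiquitinated cargo and ESCRT-II links it to ESCRT-III. Of 6 tested genes 5 (83.3%) were called lower as deposited, against 54.0% of all tested genes, and 1, Vps37b, under all 4 scalings (16.7%, against 18.0%). Vps37b, an ESCRT-I subunit, had 22.01, 26.2 and 27.6 FPKM in KO, against 60.8, 58.2 and 53.1 FPKM in WT (log2 fold change -1.16, SE 0.12, limma adjusted p = 0.000203). Its paralogue Vps37c had 40.7, 24.1 and 39.5 FPKM in KO and 42.4, 33.4 and 27.4 FPKM in WT and was not called. The ESCRT-II subunits Vps25 and Vps36 were called lower under every scaling except with the factors removed, where limma adjusted p-values were 0.0552 and 0.0623. Vps25 had 114, 132 and 119 FPKM in KO, against 213, 219.7 and 214 FPKM in WT. Vps36 averaged 4.29 ± 1.52 FPKM in KO and 9.88 ± 1.01 FPKM in WT (SD, n = 3 each). Vps28 and Vps37a, both of ESCRT-I, fell by 0.42 and 0.41 as deposited, less than the median of all tested genes, and neither was called under the other 3 scalings. The call of Vps37a was lost without KO 2, KO 3, WT 1 or WT 2 (adjusted p up to 0.0887).

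ESCRT-III genes moved in both directions. Of 11 tested genes of ESCRT-III and Vps4, 3 were called higher and 4 lower as deposited, and 5 higher and 1 lower with the factors removed. As deposited that is 27.3% higher and 36.4% lower, against 9.29% and 54.0% of all tested genes, and with the factors removed 45.5% and 9.09%, against 25.7% and 18.0%. Chmp6, which joins ESCRT-II to the filament, had 7.32, 1.64 and 3.84 FPKM in KO, against 0.964, 1.05 and 0.197 FPKM in WT. Every KO library was above every WT library, by a wide range. The KO mean was 5.78-fold higher, 3.71-fold without KO 1 and 7.56-fold without KO 2 (log2 fold change 1.49, SE 0.41, limma adjusted p = 0.0133, at most 0.0458 with 1 library left out). Chmp4b, the main filament subunit, had 2.64, 1.66 and 2.27 FPKM in KO, against 0.359, 0.556 and 0.572 FPKM in WT, a mean 4.42-fold higher in KO. Its log2 fold change of 1.08 (SE 0.18, limma adjusted p = 0.00119) is smaller than that ratio because the pseudocount of 1 weighs on low levels.

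Chmp2b, which caps filaments with its paralogue Chmp2a and recruits Vps4, had 72.5, 46.5 and 67.5 FPKM in KO, against 48.1, 46.4 and 38.0 FPKM in WT. KO library 2 lay within the WT range. Its call as higher was at the threshold (log2 fold change 0.47, SE 0.18, limma adjusted p = 0.0488) and was lost without any of KO 1, KO 3, WT 1, WT 2 or WT 3, with adjusted p up to 0.158. With the factors removed it was 1.03 (limma adjusted p = 0.00341). Chmp2a had 160.3, 194 and 169.8 FPKM in KO, against 226, 274 and 278 FPKM in WT, and its call as lower was not kept under the other scalings.

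Chmp3, which forms copolymers with Chmp2a, had 70.8, 61.8 and 63.1 FPKM in KO, against 122, 123 and 114 FPKM in WT, and was lower under all 4 scalings (log2 fold change -0.87, SE 0.09, limma adjusted p = 0.000232). Vps4a, 1 of the ATPases that disassemble the filaments, had 91.5, 92.0 and 84.3 FPKM in KO, against 169, 140.3 and 143 FPKM in WT. It was called lower only as deposited. Vps4b had 29.4, 19.5 and 27.8 FPKM in KO and 23.3, 19.8 and 17.3 FPKM in WT, was not called as deposited (limma adjusted p = 0.152) and was called higher under the other 3 scalings. Chmp7, which acts at the nuclear envelope, averaged 39.5 ± 8.17 FPKM in KO and 65.3 ± 12.1 FPKM in WT and was called lower only as deposited. Chmp1a and Chmp5 were not called under any scaling, and Chmp5 was called lower only without WT 3 (limma adjusted p = 0.0393). Chmp1b was called higher with the factors removed (0.595, adjusted p = 0.0192).

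**Figure D3:**
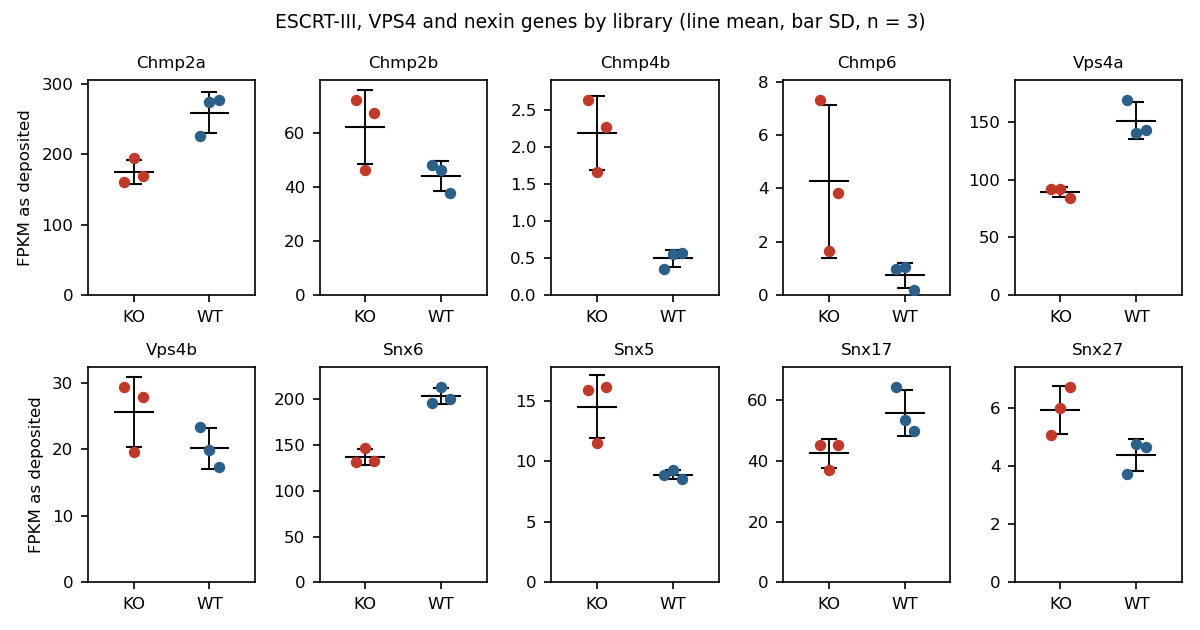
FPKM as deposited (y axis, each panel with its own scale from 0) in the KO and WT libraries for 6 ESCRT-III and Vps4 genes and 4 nexins. Points are libraries, lines means and bars SD (n = 3). Chmp4b, Chmp6, Snx5 and Snx27 lie higher in every KO library, while Chmp2a, Vps4a, Snx6 and Snx17 lie lower.

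The remaining Vps genes do not belong to these complexes, and all 5 tested ones were called lower as deposited (54.0% of all tested genes were), but only 1 of the 5 with the factors removed (18.0% of all tested genes were). Vps13a to Vps13d encode very large proteins that move lipids between membranes at contact sites. Vps13d, needed for mitochondrial shape and clearance, had 1.05, 1.03 and 0.947 FPKM in KO, against 3.51, 3.28 and 4.75 FPKM in WT, a mean 3.82-fold higher in WT (log2 fold change -1.26, SE 0.17, limma adjusted p = 0.000467), lower under all 4 scalings. Vps13a averaged 15.8 ± 0.389 FPKM in KO and 29.1 ± 2.48 FPKM in WT, and Vps13b averaged 1.78 ± 0.118 FPKM in KO and 3.65 ± 0.464 FPKM in WT (SD, n = 3 each). Both were called lower as deposited, and neither with the factors removed. Vps13c, just under the level for testing, had 0.557, 0.9395 and 0.414 FPKM in KO and 1.31, 1.23 and 1.49 FPKM in WT. Vps45, a Sec1/Munc18 protein of the early endosome and trans-Golgi, averaged 8.35 ± 0.221 FPKM in KO and 16.2 ± 1.26 FPKM in WT and was not called with the factors removed (limma adjusted p = 0.0559). Vps72, a subunit of chromatin complexes that exchange histone H2A.Z, shares only its yeast name with the sorting genes. It had 141, 161 and 144 FPKM in KO, against 227, 251 and 265 FPKM in WT, and was not called with the factors removed.

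Of the 30 sorting nexins 27 were tested, and 1 was called higher and 15 lower as deposited. That is 3.70% and 55.6%, against 9.29% and 54.0% of all tested genes, so the share of falling nexins was close to the background. With the factors removed 4 were higher and 1 lower (14.8% and 3.70%), against 25.7% and 18.0%. Only Snx9 was lower and only Snx5 higher under all 4 scalings. The SNX-BAR proteins pair a PX domain with a curved BAR domain. Snx9, which works with dynamin at endocytic pits, had 78.2, 83.4 and 79.3 FPKM in KO, against 167, 140.2 and 148 FPKM in WT (log2 fold change -0.91, SE 0.10, limma adjusted p = 0.000217, and -0.33 with the factors removed, adjusted p = 0.0253). Its paralogue Snx18 had 28.5, 28.1 and 27.4 FPKM in KO, against 48.5, 43.2 and 53.3 FPKM in WT, and was not called with the factors removed. Snx1, Snx2, Snx5 and Snx6 form dimers that shape recycling tubules, each with 1 of Snx1 or Snx2 and 1 of Snx5 or Snx6. Snx5 had 15.9, 11.5 and 16.2 FPKM in KO, against 8.87, 9.28 and 8.54 FPKM in WT, with all KO libraries above WT (log2 fold change 0.64, SE 0.16, limma adjusted p = 0.00798).

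Snx6 had 131, 147 and 133 FPKM in KO, against 196, 214 and 201 FPKM in WT, and fell by 0.57 as deposited, while with the factors removed its log2 fold change was 0.01. Snx2 had 78.7, 77.3 and 69.0 FPKM in KO, against 102, 101 and 115 FPKM in WT, with a log2 fold change of 0.08 once the factors were removed, and Snx1 was not called. So among the 4 dimer partners, Snx5 was the one called higher, as deposited and under the other scalings, which raise KO relative to WT. Snx4, of recycling and autophagy, and Snx8 and Snx32 were called lower as deposited and not with the factors removed, and Snx32 lost its call without WT 1 or WT 2 (limma adjusted p up to 0.0608). Snx7 and Snx30 were not called, and Snx33 was too low to test.

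The PX-only nexins had a median log2 fold change of -0.24 as deposited, against -0.57 for the SNX-BAR nexins and -0.47 over all tested genes. With the factors removed these medians were 0.10, 0.01 and 0.04. The PX-only median as deposited is the value of Snx21, at a mean of 1.75 FPKM. Snx3, which carries the Wnt carrier Wls with retromer, had 165, 153 and 162 FPKM in KO, against 235, 234 and 211 FPKM in WT. Snx12, its paralogue, had 46.6, 45.4 and 52.9 FPKM in KO, against 68.2, 67.4 and 83.5 FPKM in WT. Both were called lower as deposited only. Snx16 and Snx29 were likewise called lower as deposited and not with the factors removed. Snx10, Snx11 and Snx21 were not called under any scaling, and Snx24 was too low to test. Snx22 had 77.8, 64.6 and 77.1 FPKM in KO and 73.0, 68.7 and 68.9 FPKM in WT. It and Snx20 were not called as deposited and called higher with the factors removed (limma adjusted p = 0.00291 and 0.0318).

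Snx17, the cargo adaptor of retriever, had 45.3, 37.0 and 45.1 FPKM in KO, against 64.4, 53.3 and 49.7 FPKM in WT, and its call as lower (limma adjusted p = 0.0345) was lost without any of KO 1, KO 2, KO 3, WT 1 or WT 2. Snx27, the PDZ-domain adaptor that returns receptors with retromer, had 5.08, 6.02 and 6.74 FPKM in KO and 3.75, 4.76 and 4.65 FPKM in WT. It was not called as deposited (limma adjusted p = 0.0762) and was called higher under the other 3 scalings. Of the PXA-RGS nexins, which sit in the endoplasmic reticulum, Snx14 and Snx19 were called lower as deposited only, Snx19 not without KO 2, KO 3, WT 1 or WT 2 (limma adjusted p up to 0.0947). Snx13 and Snx25 were not called. Snx15 averaged 43.1 ± 3.77 FPKM in KO and 68.8 ± 3.83 FPKM in WT (SD, n = 3 each), called lower as deposited only. Among the 7 genes not tested, the highest mean level was 0.989 FPKM, for Vps13c, and Vps37d, Chmp4c and Snx31 stayed near 0.

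Paralogues were also compared inside each library, where the genotype factor acts only through the added pseudocount. For 10 pairs the log2 of the ratio of the first gene to the second, each with 1 FPKM added, was taken in every library. In 7 pairs the KO and WT libraries did not overlap, each with an exact two-sided permutation p = 0.1, the smallest that 3 against 3 allows, and 0.143 after adjustment over the 10 pairs. So no pair can pass the threshold in this design. Snx5 over Snx6 was -2.97, -3.56 and -2.96 in KO, against -4.32, -4.38 and -4.40 in WT, a difference of 1.20. Vps4a over Vps4b was 1.61, 2.18 and 1.57 in KO, against 2.81, 2.76 and 2.98 in WT, a difference of -1.07. Chmp2a over Chmp2b was 1.13, 2.04 and 1.32 in KO, against 2.21, 2.54 and 2.84 in WT, a difference of -1.03. In each of these the less abundant paralogue made up more of the pair in KO.

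As ratios of FPKM, Vps4a exceeded Vps4b 3.49-fold in KO and 7.49-fold in WT, and Chmp2a exceeded Chmp2b 2.81-fold in KO and 5.87-fold in WT. Vps33a over Vps33b differed by 0.96, Vps26a over Vps26b by -0.59 and Snx17 over Snx27 by -0.75, all with the pair nearer to equal levels in KO. Snx13 over Snx14 was the exception, with a difference of 0.56 and a pair farther from equal in KO. Thus 6 of the 7 pairs were nearer to equal in KO and 1 farther. The share among other gene pairs was not computed. Singly, KO lay wholly below WT in 57.5% of all tested genes and wholly above in 10.2%. The median log2 fold change of all genes averaging at least 10 FPKM was -0.56, against -0.47 for at least 1 FPKM. The median for at least 1 FPKM was -0.53 with a pseudocount of 0.1 and -0.33 with 5, so it depends on the FPKM added. Whether these pairs differ from other genes of like levels was not tested. With the factors removed before 1 FPKM was added, an alternative chosen after seeing the data, 6 pairs did not overlap and 5 of these were nearer to equal in KO. Vps26a over Vps26b then overlapped (difference -0.49), Vps33a over Vps33b differed by 0.68 and Snx17 over Snx27 by -0.59. The groups overlapped for Chmp1a over Chmp1b (difference -0.41, exact permutation p = 0.3), Snx1 over Snx2 (0.23, p = 0.4) and Snx3 over Snx12 (0.08, p = 0.8).

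**Figure D4:**
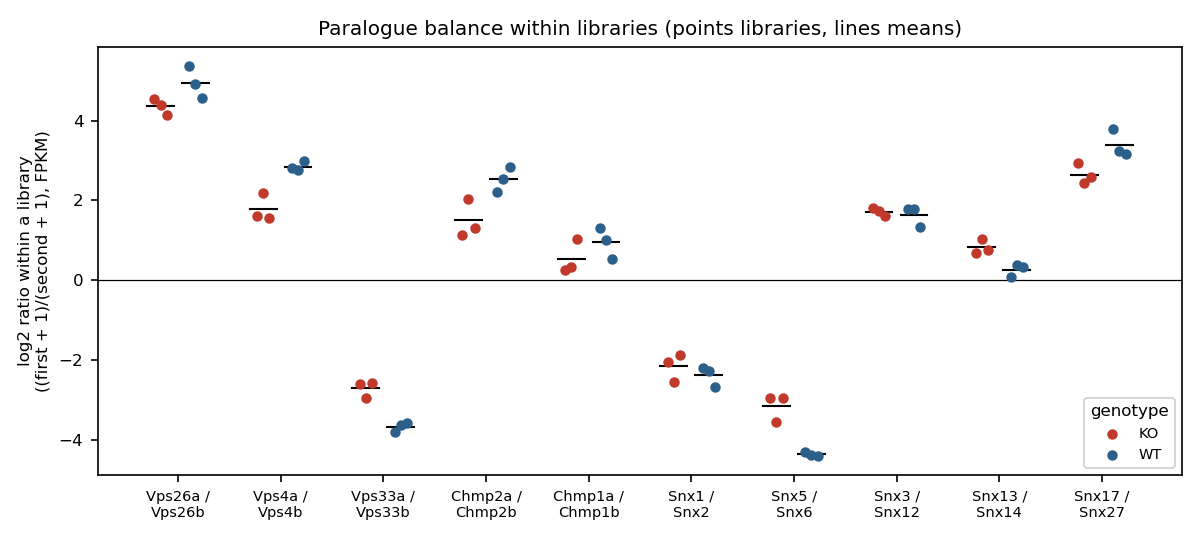
Log2 ratio of 2 paralogues within a library ((first + 1)/(second + 1), FPKM, y axis) for 10 pairs (x axis). Points are the 3 KO and 3 WT libraries and lines their means, and 7 pairs have no overlap between genotypes, with 6 of them nearer to 0 in KO.

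The share of a library's summed FPKM held by each role group is free of the genotype factor. In 6 of the 11 groups the KO shares lay wholly below the WT shares. Each had an exact permutation p = 0.1, the smallest the design allows, and 0.183 after adjustment over the 11 groups. The number among other groups of genes was not computed. With equal totals, 25.8% of all tested genes were called lower and 19.0% higher, with a median log2 fold change of -0.09. HOPS and CORVET genes, Vps33b included, held 0.00665%, 0.00578% and 0.00615% in KO, against 0.0139%, 0.0106% and 0.00924% in WT. GARP genes held 0.00374%, 0.00309% and 0.00353% in KO, against 0.00558%, 0.00471% and 0.00415% in WT. The other 4 groups without overlap were the retromer core (0.0402% ± 0.00237 in KO and 0.0463% ± 0.00305 in WT), ESCRT-I and ESCRT-II (0.0240% ± 0.000437 in KO and 0.0291% ± 0.00153 in WT), the other Vps genes (0.0182% ± 0.000712 in KO and 0.0230% ± 0.000843 in WT) and the SNX-BAR nexins (0.0430% ± 0.00166 in KO and 0.0495% ± 0.00245 in WT, SD, n = 3 each). In the remaining 5 groups the shares overlapped. ESCRT-III and Vps4 genes held 0.0743%, 0.0609% and 0.0686% in KO, and 0.0721%, 0.0726% and 0.0631% in WT (exact permutation p = 0.7). All 70 genes together held 0.243% to 0.274% in KO and 0.270% to 0.306% in WT.

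Exon number went with the size of the fall. Over the 63 tested members the Spearman rho between the exon number of the longest coding transcript and the log2 fold change was -0.43, and that with transcript length was -0.25. Over the 11188 tested genes with a matched transcript these were -0.31 and -0.16, so the direction is that of the whole table. These are correlations across genes of the same 6 libraries, which are not independent replicates. Members had a median of 11 exons, against 9 for all tested genes. Vps54, with 23 exons, rose, while Vps52 and Vps53, with 20 and 22, fell.

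**Figure D5:**
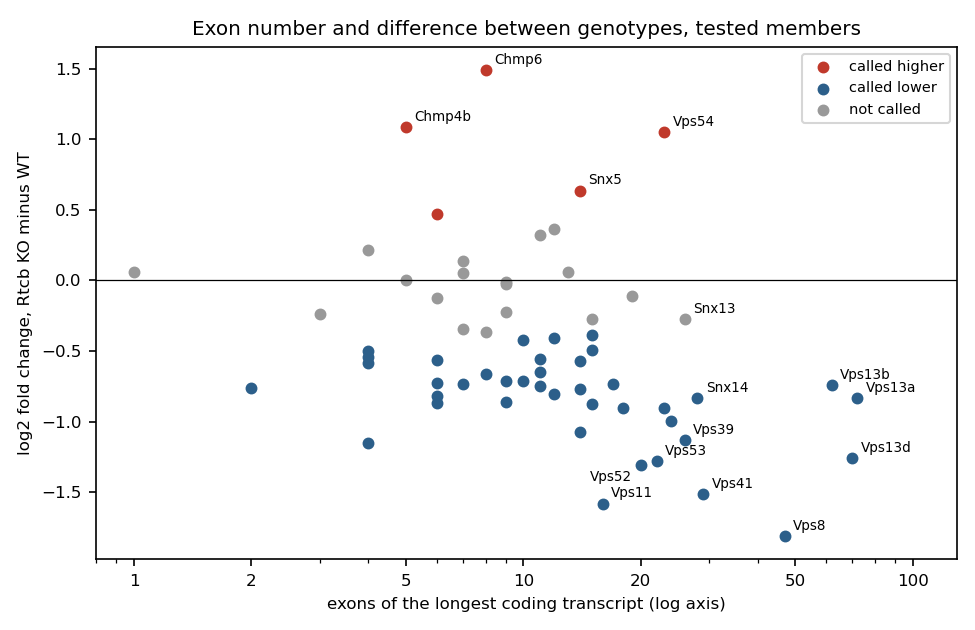
Exons of the longest coding transcript (x axis, log scale) and log2 fold change of KO minus WT as deposited (y axis) for the 63 tested genes. Vps8 lies lowest of all, and Vps54 is the called-higher gene with the most exons.

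Some levels are uncertain because reads could be shared. Exons of 25 members overlap those of another gene in the GENCODE annotation, and 20 members have a stretch of at least 150 bases at 95% identity or more elsewhere in the transcripts. The labels used here do not state whether counting used strand, so reads of overlapping genes cannot be told apart. Vps52 overlaps Rps18 on the other strand by 156 bases, Vps53 overlaps Glod4 by 150, Vps37b overlaps Hip1r by 918 and Snx5 overlaps Mgme1 by 206. Vps25 overlaps Ramp2 on the same strand by 637 bases, and Snx22 overlaps Ppib on the other strand by 496. Chmp3 and Vps4b have near copies, Vps4b at 96.0% over 1329 bases of Gm4939. Vps8, Vps11, Vps41, Vps39, Vps54, Chmp4b and Chmp6 have no such overlap or copy.

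The partners of these genes were described from lists of 6 kinds, whose counts stand beside 9.29% higher and 54.0% lower of all tested genes as deposited, and 25.7% and 18.0% with the factors removed. Of 15 ESCRT partners, all tested, 2 rose and 10 fell (13.3% and 66.7%), and 3 rose and 4 fell with the factors removed (3 of 15 against 25.7% of all tested genes, and 26.7% against 18.0%). Usp8, which removes ubiquitin from ESCRT cargo, had 10.8, 10.4 and 10.4 FPKM in KO, against 37.0, 32.6 and 30.2 FPKM in WT (log2 fold change -1.57, SE 0.12, limma adjusted p = 0.000162). Cep55, which recruits ESCRT to the midbody, fell by 0.88. Ist1, an ESCRT-III-like protein listed as 2400003C14Rik, had 59.6, 33.6 and 51.2 FPKM in KO, against 29.0, 27.9 and 21.8 FPKM in WT (log2 fold change 0.82, SE 0.21, limma adjusted p = 0.0104). Stam2, of the ESCRT-0 pair, had a log2 fold change of 0.47 whose call was lost without KO 1, KO 3, WT 2 or WT 3 (limma adjusted p up to 0.137).

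The WASH complex, which grows actin on retromer endosomes, matched 4 of 5 genes in the table, with 1 higher and 2 lower as deposited and 2 higher and 1 lower under each of the other 3 scalings. Over all tested genes 9.29% were higher and 54.0% lower as deposited, and 25.7% and 18.0% with the factors removed. Ccdc53 (Washc3) had 31.1, 22.3 and 24.6 FPKM in KO, against 10.9, 13.9 and 16.7 FPKM in WT. E430025E21Rik (Washc5) had 10.5, 8.29 and 9.24 FPKM in KO, against 24.2, 20.7 and 20.6 FPKM in WT. Both groups were apart and in opposite directions (log2 fold changes 0.87 and -1.14, limma adjusted p = 0.00392 and 0.000301). Of the 14 retriever and CCC genes, which recycle integrins with Snx17, 1 rose and 6 fell as deposited (7.14% and 42.9%, against 9.29% and 54.0% of all tested genes). Once the factors were removed 6 rose and 3 fell (42.9% and 21.4%, against 25.7% and 18.0%). 9030624J02Rik (Vps35l), the retriever scaffold, had 54.7, 62.9 and 54.0 FPKM in KO, against 130.4, 111 and 114 FPKM in WT, and Ccdc93 fell by 1.14. Commd4 had a log2 fold change of 0.57 whose call was lost without KO 3, WT 2 or WT 3 (limma adjusted p up to 0.0827).

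Phosphoinositide kinases and phosphatases make and remove the lipids that PX domains bind. Of 12 genes 1 rose and 9 fell as deposited (8.33% and 75.0%, against 9.29% and 54.0% of all tested genes). After removal of the factors 2 rose and 5 fell (16.7% and 41.7%, against 25.7% and 18.0%). Pik3r4 (Vps15), the regulatory subunit of the PI3P kinase, had 30.7, 22.8 and 24.9 FPKM in KO, against 80.3, 64.4 and 69.2 FPKM in WT (log2 fold change -1.42, SE 0.14, limma adjusted p = 0.000184). The phosphatase Mtmr4 fell by 1.26, and Mtm1 had a log2 fold change of 0.69 whose call was lost without KO 1, KO 3 or WT 2 (limma adjusted p up to 0.0888).

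Of 31 tested endosomal Rab, tether and SNARE genes 4 rose and 23 fell as deposited (12.9% and 74.2%, against 9.29% and 54.0% of all tested genes). Once the factors were removed 7 rose and 8 fell, 22.6% and 25.8%, near the 25.7% and 18.0% of all tested genes. Rab5a, of the early endosome, had 31.2, 17.2 and 28.9 FPKM in KO, against 7.88, 9.93 and 5.82 FPKM in WT (log2 fold change 1.58, SE 0.25, limma adjusted p = 0.00109). Rab9, of transport to the Golgi, had 98.4, 87.0 and 87.2 FPKM in KO, against 53.4, 55.3 and 55.1 FPKM in WT. Both stood wholly above WT, and Rabgef1, an exchange factor for Rab5, had a log2 fold change of 0.73. Vamp3 had 0.38, and its call was lost without KO 1, KO 2, KO 3, WT 1 or WT 3 (limma adjusted p up to 0.0829). Rab4a fell by 0.96 and the SNARE Stx12 by 1.12.

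Of 9 tested cargo genes of the retromer and nexin routes 2 rose and 7 fell as deposited (22.2% and 77.8%, against 9.29% and 54.0% of all tested genes). Free of the factors, 2 rose and 3 fell (22.2% and 33.3%, against 25.7% and 18.0%). Wls had 33.3, 17.1 and 25.4 FPKM in KO, against 10.8, 13.03 and 9.36 FPKM in WT (log2 fold change 1.09, SE 0.24, limma adjusted p = 0.0045). The transferrin receptor Tfrc had 8.07, 4.73 and 8.50 FPKM in KO, against 2.93, 1.68 and 1.76 FPKM in WT (log2 fold change 1.36, SE 0.25, limma adjusted p = 0.00186). Both stood above WT in all 3 KO libraries. Lrp1 had 1.98, 2.49 and 2.21 FPKM in KO, against 6.44, 5.89 and 6.93 FPKM in WT, and M6pr, the cation-dependent mannose phosphate receptor, fell by 0.88 as deposited and was not called with the factors removed (limma adjusted p = 0.0557).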

How the data were processed

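RNA of 6 libraries, 3 Rtcb KO and 3 WT, each of 10 oocytes lysed with ERCC spike-ins, was amplified from its poly(A) tail with Smart-seq2 and sequenced in pairs, per the labels' protocols. The authors deposited FPKM values per gene, normalized to the spike-ins. The submitters' processing notes name TopHat2 2.1.1, Cufflinks 2.2.1 and build mm9. The table holds no read counts, so depth is unknown. Summed FPKM was 943926 to 999507 in KO and 1.27e+06 to 1.35e+06 in WT.

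Genes averaging at least 1 FPKM were compared on log2(FPKM + 1), KO minus WT, with limma 3.58.1 (R 4.3.3, intensity trend, no covariate) and Benjamini-Hochberg adjustment over all 12029 genes. A fold change on this scale understates low genes. Ratios and shares were compared with exact two-sided permutation tests. The procedure was checked on simulated data. Same-numbered KO and WT libraries did not deviate together (r 0.14, -0.10 and 0.04), so numbers were not used as pairs. Alternatives were pseudocounts of 0.1 and 5, no filter or 10 FPKM, no trend, the 3 other scalings, the 100 most abundant rows left out of shares, the block and leaving out each library, and, added after the data were seen, paralogue ratios with the factors removed. The members and lists were chosen with earlier results of these data known. The genes to name were Rtcb, the retromer core, the members called higher, up to 4 members of smallest p in each role group and, of each list, the 2 of smallest p and those called higher. Library values of further members, and Vipar and Tgfbrap1, were added once values had been seen.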

Additional observations from a re-analysis of the deposited data

How the results depend on the processing

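As deposited, 5 members were higher and 40 lower. With the genotype factors removed the counts were 10 and 11, with equal totals 8 and 19, and with median ratios 10 and 16, and the median log2 fold change of the members was -0.0068, -0.16 and -0.076. Pseudocounts of 0.1 and 5 gave the same counts. With only genes of at least 10 FPKM, 2 were higher, because Vps54, Chmp6 and Chmp4b average less than that and were not tested. With no filter, or without the intensity trend, 4 were higher and Chmp2b lost its call. Leaving out 1 library gave 4 to 6 higher, 36 to 41 lower and a median of -0.60 to -0.54. With the 100 most abundant rows left out, the share of ESCRT-I and ESCRT-II differed by -0.0068 and that of the other Vps genes by -0.0065 percentage points. With the factors removed the Vps33a to Vps33b balance differed by 0.68. The Snx3 to Snx12 balance differed by -0.067 to 0.16 with 1 library left out.

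Of the 60 named genes called as deposited, 24 lost their call with the factors removed, 15 with equal totals and 18 with median ratios. Of all members called lower as deposited, 8 had log2 fold changes above 0 with the factors removed, among them Snx2 (0.082) and Vps37a (0.13). With the factors removed these log2 fold changes of named genes, called as deposited or not, turned positive: Chmp2a 0.017, Snx3 0.081, Snx6 0.012, Snx13 0.26, Snx17 0.19, Snx25 0.34, Vps26b 0.35, Vps28 0.15 and Vps29 0.041. With equal totals they were Snx13 0.13, Snx17 0.038, Snx25 0.25, Vps26b 0.25 and Vps28 0.00058. With median ratios they were Snx3 0.011, Snx13 0.20, Snx17 0.12, Snx25 0.32, Vps26b 0.32 and Vps28 0.081. These are shifts built into the scalings.

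Replicate numbers did not pair the libraries. The fit with the number as a block, the replicate block, gave 5 members higher and 40 lower, the same counts. No read counts are given, so low genes such as Chmp6 and Chmp4b carry an unknown counting error.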
